A study of Homo sapiens with 6 samples.

Results

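The 37 genes of the mitochondrial chromosome were examined in A549 cells that overexpress IL17D. They were chosen by position alone, as all rows of the count table whose chromosome is MT, which gave 37 of the 58735 listed genes. Of these, 13 encode mRNAs, 2 encode ribosomal RNAs and 22 encode transfer RNAs. A549 is a human lung adenocarcinoma cell line. RNA was sequenced from 3 libraries of A549 cells with the empty vector (control) and 3 libraries of A549 cells that overexpress IL17D, all grown in RPMI1640 medium with fetal bovine serum. The IL17D reading frame was taken from H82 cDNA and placed in a lentiviral vector with the human PGK promoter and an IRES-GFP. The sources used here do not say whether libraries of a group stem from separate transductions, clones or cultures, so the p-values measure only the spread between these libraries, which may be technical.

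The mitochondrial genome is a small circle that encodes core subunits of complexes I, III and IV and of ATP synthase, together with the ribosomal and transfer RNAs that translate them inside the organelle. Both of its strands are transcribed as long precursors by the polymerase POLRMT. Enzymes cut the transfer RNAs out of the precursors, and this releases the mRNAs and ribosomal RNAs that lie between them. Most of the mRNAs then receive short poly(A) tails, and the final amounts of mRNAs depend mainly on stability, in which the LRPPRC-SLIRP complex takes part. All other subunits of the respiratory chain, and the proteins that copy, read and translate the mitochondrial genome, come from nuclear genes.

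All 37 genes had the coordinates and strand of GENCODE release 29 on GRCh38, and the sequences below are GENCODE's transcripts of them, written as DNA. Of the 37 genes, 9 are coded on the light strand, namely MT-ND6 and 8 transfer RNA genes. The genes are packed closely, and 5 pairs of neighbours overlap. The largest overlap is that of MT-ATP8 and MT-ATP6, which share 46 bases at 8527 to 8572 and are carried by the same RNA. MT-ND4L and MT-ND4 share 7 bases at 10760 to 10766 and are also carried by the same RNA. MT-ATP8 (heavy strand, MT:8366-8572) and MT-ND4L (heavy strand, MT:10470-10766) are shown because these 2 had the largest log2 fold changes of the 13 mRNAs, and capitals mark the bases that each shares with the next gene.
MT-ATP8: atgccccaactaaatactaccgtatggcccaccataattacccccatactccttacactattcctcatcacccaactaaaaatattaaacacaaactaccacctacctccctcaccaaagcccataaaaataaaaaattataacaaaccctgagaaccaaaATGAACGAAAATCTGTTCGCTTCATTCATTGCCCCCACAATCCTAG
MT-ND4L: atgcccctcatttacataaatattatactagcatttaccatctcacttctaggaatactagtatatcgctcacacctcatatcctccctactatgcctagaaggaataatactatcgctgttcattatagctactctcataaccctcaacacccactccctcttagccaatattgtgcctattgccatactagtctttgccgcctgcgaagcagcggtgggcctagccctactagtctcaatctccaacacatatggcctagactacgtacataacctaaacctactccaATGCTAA
In 6 of the 13 mRNA genes the length is not a multiple of 3. In such mRNAs poly(A) addition is known to complete the stop codon. The 12 mRNAs of the heavy strand hold 6.28% to 16.2% G, whereas the light-strand mRNA MT-ND6 holds 35.6% G.

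The transfer RNA genes are 59 to 75 bases long. The 5 with the most counts are shown first, namely MT-TN (asparagine), MT-TC (cysteine), MT-TP (proline), MT-TL1 (leucine) and MT-TY (tyrosine), of which all but MT-TL1 are coded on the light strand. MT-TF (phenylalanine), the gene with the fewest counts, and the overlapping pair MT-TI (isoleucine) and MT-TQ (glutamine) follow. Capitals mark bases that lie in 2 genes.
MT-TN: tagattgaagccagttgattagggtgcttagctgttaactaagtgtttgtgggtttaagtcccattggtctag
MT-TC: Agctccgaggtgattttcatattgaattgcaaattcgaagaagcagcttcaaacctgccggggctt
MT-TP: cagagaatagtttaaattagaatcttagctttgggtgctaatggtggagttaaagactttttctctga
MT-TL1: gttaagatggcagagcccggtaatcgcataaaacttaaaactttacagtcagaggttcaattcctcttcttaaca
MT-TY: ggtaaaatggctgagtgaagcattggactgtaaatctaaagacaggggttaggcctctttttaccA
MT-TF: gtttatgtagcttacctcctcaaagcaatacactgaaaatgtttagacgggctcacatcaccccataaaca
MT-TI: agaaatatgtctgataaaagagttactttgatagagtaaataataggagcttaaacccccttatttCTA
MT-TQ: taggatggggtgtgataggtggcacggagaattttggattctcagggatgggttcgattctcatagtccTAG

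Copies of mitochondrial genes also lie in the nuclear genome. A block on chromosome 1 carries MTATP6P1, a copy of MT-ATP6 with 98.5% identity over 681 bases. In a window of 90 bases, MT:8629-8718 and chr1:633798-633887 (GRCh38, plus strand in both) differ at 4 positions, marked by capitals. This window is shown because it holds 4 of the 10 positions at which MT-ATP6 and MTATP6P1 differ. Elsewhere the sequences are more alike, with a longest identical run of 141 bases, and reads from identical stretches are hard to assign.
MT-ATP6: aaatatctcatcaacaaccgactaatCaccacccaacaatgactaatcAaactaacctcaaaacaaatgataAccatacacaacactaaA
MTATP6P1: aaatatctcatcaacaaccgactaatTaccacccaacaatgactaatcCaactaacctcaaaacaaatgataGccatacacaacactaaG

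The libraries held 14319398 to 16521021 counts on genes. IL17D had 18 to 34 counts in the control libraries and 26772 to 32155 counts in the IL17D libraries, a log2 fold change of 10.19 (edgeR quasi-likelihood test, Benjamini-Hochberg adjusted p = 2.5e-47). The epithelial keratins KRT8 and KRT18 were high in every library, with at least 3496 CPM (counts scaled by the TMM-adjusted library total). CDH1 lay between 32.3 and 46.1 CPM and was lower in IL17D cells (adjusted p = 0.0306 from edgeR), whereas EPCAM stayed at or below 1.30 CPM. The alveolar markers NKX2-1, SFTPB, SFTPA1 and SFTPC did not exceed 0.553 CPM, so these defining lung markers were nearly absent. The leukocyte marker PTPRC had no count, which allows up to 0.210 CPM in the smallest library. CD14, CD68 and the endothelial marker PECAM1 stayed at or below 1.21 CPM, and the fibroblast collagen gene COL1A1 was present at 19.2 to 24.2 CPM in both groups.

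Mitochondrially encoded RNA took nearly the same part of the libraries in both groups. The 37 genes held 6.85%, 6.86% and 7.25% of all counts in control replicates 1, 2 and 3, and 6.88%, 7.36% and 6.99% in IL17D replicates 1, 2 and 3. The group means were 6.99% ± 0.226 (SD, n = 3) in control cells and 7.08% ± 0.249 (SD, n = 3) in IL17D cells. The difference of 0.0914 percentage points was smaller than the SD of either group, and the groups overlapped, with control replicate 3 and IL17D replicate 2 the highest of their groups. The difference was -0.0493 percentage points without IL17D replicate 2 and 0.222 without control replicate 3. Counting error is far smaller than this spread, since the widest 95% Wilson interval of a library's share spans 0.0264 percentage points, although such intervals cover counting error only. A share is relative to the other RNA of the library, and in bulk RNA fewer cells of a kind and less RNA per cell cannot be told apart.

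The 3 kinds of RNA were compared apart. The 13 mRNA genes held 5.70%, 5.68% and 6.02% of the counts in control replicates 1, 2 and 3 and 5.72%, 6.13% and 5.82% in IL17D replicates 1, 2 and 3, with means of 5.80% ± 0.190 and 5.89% ± 0.212 (SD, n = 3 each). As for all 37 genes, control replicate 3 and IL17D replicate 2 were highest. The 2 ribosomal RNA genes held 1.146% ± 0.0426 in control cells and 1.145% ± 0.0395 in IL17D cells (SD, n = 3 each). The 22 transfer RNA genes held 0.0392% to 0.0439% in the control libraries and 0.0418% to 0.0464% in the IL17D libraries, with means of 0.0419% ± 0.00243 and 0.0437% ± 0.00243 (SD, n = 3 each). In each class the groups overlapped and the difference was below the SD of both groups. Within the mitochondrial counts, mRNAs made up 82.8% to 83.3%, ribosomal RNAs 16.1% to 16.6% and transfer RNAs 0.541% to 0.674% of a library. Light-strand genes gave 1.52% to 1.80% of the mitochondrial counts, again with overlapping groups.

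**Figure D1:**
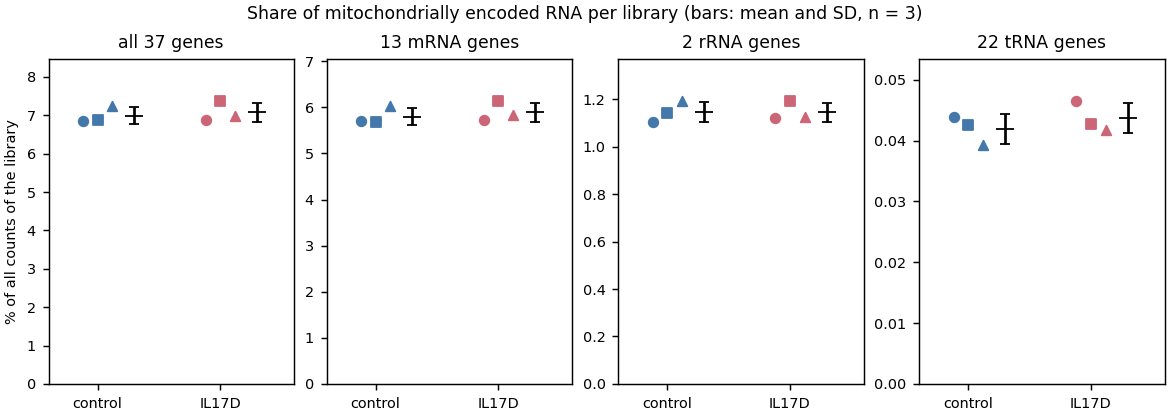
Share of the library's counts (%, vertical axis from 0) held by all 37 mitochondrially encoded genes and by the mRNA, rRNA and tRNA genes, for 3 control and 3 IL17D libraries (circle, square and triangle for replicates 1, 2 and 3; black bars, mean and SD, n = 3). The groups overlap in all 4 panels, with means of 6.99% and 7.08% for all 37 genes.

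Levels per length spanned a wide range. On the RPKM scale (counts relative to library total and to gene length in kilobases), averaged over the 6 libraries, the complex IV mRNAs stood first, with 12093 RPKM for MT-CO1, 9322 for MT-CO2 and 8723 for MT-CO3. The ranges of MT-CO2 (9051 to 9681 RPKM) and MT-CO3 (8127 to 9760 RPKM) over the libraries overlapped, whereas MT-CO1 (11820 to 12495 RPKM) lay above both. MT-RNR2, MT-ATP6, MT-ND4 and MT-ND4L followed with 6764, 5846, 5254 and 5111 RPKM, and the wide range of MT-ND4L (4349 to 5784 RPKM) overlapped those of MT-ND4 and MT-ATP6. MT-RNR2, MT-ATP6 and MT-ND4 did not overlap each other. A lower tier held MT-ND1, MT-ND2, MT-ND3, MT-CYB, MT-ND5 and MT-ND6, from 3063 down to 1528 RPKM. Within it, the ranges of MT-ND1 and MT-ND2 overlapped, as did those of MT-ND2 and MT-ND3, while MT-CYB, MT-ND5 and MT-ND6 lay apart from their neighbours. MT-ATP8 was far below the other mRNAs, at 55.7 RPKM. It shares its RNA with MT-ATP6, whose level per length was 90.2 to 155 times as high in the same library. MT-ND4 was 0.950 to 1.17 times as high as MT-ND4L, its partner on another shared RNA. How reads that touch 2 genes were counted is not given in the sources used here, and its part in the low value of MT-ATP8 was not tested.

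**Figure D2:**
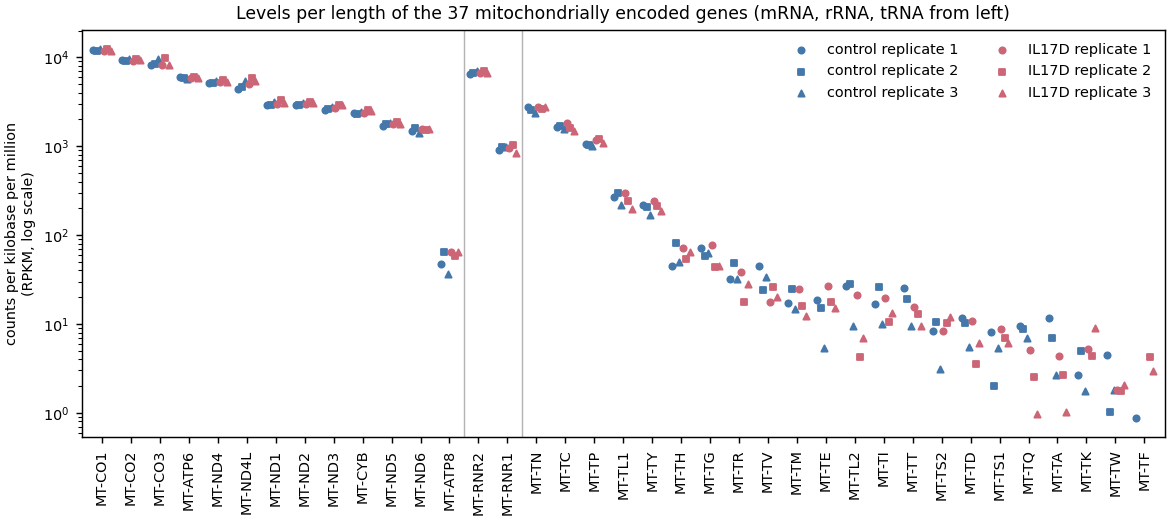
Level per length (RPKM, log scale) of the 37 mitochondrially encoded genes in each library (blue, control; red, IL17D; circle, square and triangle for replicates 1, 2 and 3), with mRNA, rRNA and tRNA genes from left to right. MT-CO1 is highest at 12093 RPKM, MT-ATP8 stands apart from the other mRNAs at 55.7 RPKM, and the 2 control libraries and the IL17D library without counts of MT-TF are not drawn.

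Each gene was then compared between IL17D and control cells by edgeR's quasi-likelihood test. The filter on low counts kept 30 of the 37 genes, namely all 13 mRNA genes, both ribosomal RNA genes and 15 of the 22 transfer RNA genes. By edgeR, 0 of the 30 genes passed an adjusted p of 0.05, while 1.58% of all 15754 tested genes did (0.673% higher and 0.908% lower in IL17D cells). At an unadjusted p under 0.05 there were 7 of the 30 genes (23.3%), against 11.6% of all tested genes. MT-ND4L, MT-ND3, MT-ATP8, MT-TN and MT-TP were the 5 that were higher in IL17D cells (5.59% of all tested genes), and MT-TV and MT-TL2 the 2 that were lower (5.99% of all). DESeq2 and limma voom also called none at an adjusted p under 0.05, and gave 3 and 10 genes at an unadjusted p under 0.05. These are 10% and 33.3% of the 30 genes, against 7.69% and 11.6% of all tested genes in the same tests. The 3 control and 3 IL17D libraries did not overlap for 1 of the 30 genes (3.33%), MT-TP, which was higher in IL17D cells. Among all tested genes 15.8% did not overlap, 7.48% being higher and 8.33% lower. Among the 13 mRNA genes the log2 fold changes had a median of 0.05 and 12 were above 0, where the median of all tested genes was -0.00044 and 49.9% were above 0. Since mitochondrial mRNAs come from long shared precursors, these signs are not independent of each other, and no test was made of their count.

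**Figure D3:**
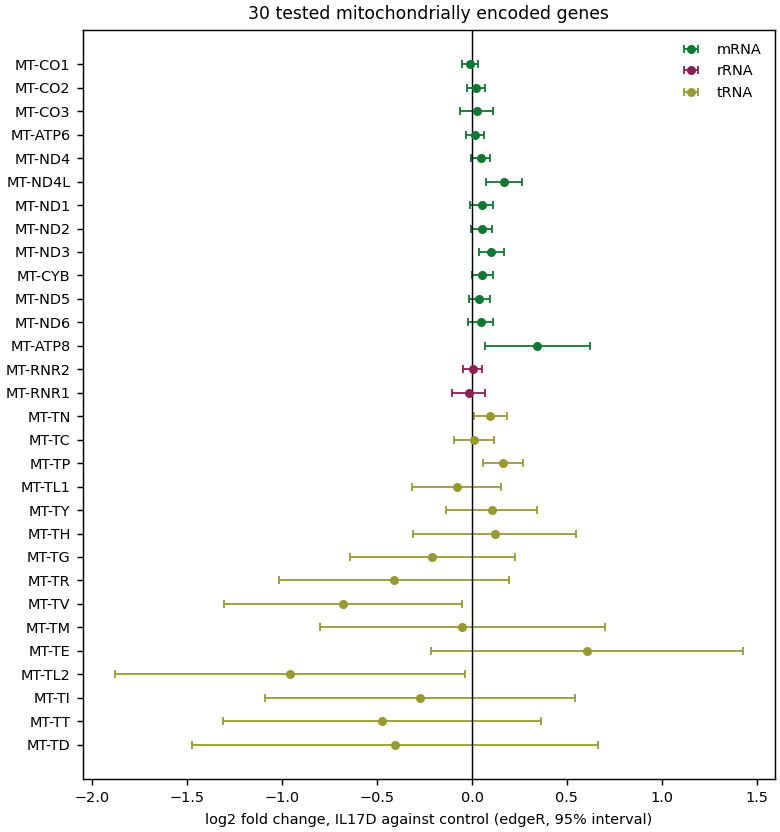
Log2 fold change of IL17D against control cells (horizontal axis) with its 95% interval from edgeR for the 30 tested mitochondrially encoded genes, in the order of level within mRNA (green), rRNA (purple) and tRNA (olive) genes. Estimates of most mRNA and rRNA genes lie close to 0 with narrow intervals, MT-ND4L is at 0.17, and intervals widen for transfer RNA genes with few counts.

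The 3 mitochondrial subunits of complex IV, cytochrome c oxidase, form its catalytic core. MT-CO1 (ENSG00000198804, bases 5904 to 7445) had 18552, 18258 and 19324 CPM in control replicates 1, 2 and 3 and 18207, 19159 and 18391 CPM in IL17D replicates 1, 2 and 3. The groups overlapped, and its log2 fold change was -0.01 with a 95% interval of -0.05 to 0.03 (adjusted p = 0.922 from edgeR). MT-CO2 (bases 7586 to 8269) had a log2 fold change of 0.02 (interval -0.03 to 0.07). MT-CO3 (bases 9207 to 9990) had 0.02 as well, with a wider interval of -0.06 to 0.11. For MT-CO3 2 libraries stood apart, control replicate 3 with 7495 CPM and IL17D replicate 2 with 7673 CPM, while the other 4 libraries had 6359 to 6516 CPM.

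Complex I, the NADH dehydrogenase, has 7 mitochondrial subunits, and the estimates of all 7, which are not independent, were above 0. MT-ND4L (ENSG00000212907), a small membrane subunit, had 1289, 1379 and 1621 CPM in control replicates 1, 2 and 3 and 1480, 1723 and 1618 CPM in IL17D replicates 1, 2 and 3. Its groups overlapped, since control replicate 3 lay above 2 of the IL17D libraries. The log2 fold change was 0.17 (standard error 0.047, interval 0.07 to 0.26), and the adjusted p of 0.0656 from edgeR missed the threshold. Whether it was called depended on single libraries and on the settings of the fit. With edgeR, its adjusted p fell to 2.4e-06 without control replicate 3 and to 0.0101 without IL17D replicate 1, with log2 fold changes of 0.27 and 0.23. Without control replicate 1 the log2 fold change was 0.10, with an adjusted p of 0.430 in edgeR. With all genes of at least 1 count in the fit, the adjusted p from edgeR was 1.2e-06, and with DESeq2's Wald test it was 0.860.

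MT-ND3 (bases 10059 to 10404), another small complex I subunit, had 893, 902 and 947 CPM in the control libraries and 928, 1005 and 1010 CPM in the IL17D libraries. Only control replicate 3 and IL17D replicate 1 crossed between the groups, and the log2 fold change was 0.10 (interval 0.04 to 0.17, adjusted p = 0.115 from edgeR). Without control replicate 3 the adjusted p from edgeR was 0.0212, and without IL17D replicate 1 it was 0.0342. The larger subunits stayed closer to 0, with log2 fold changes of 0.05 for MT-ND1, 0.05 for MT-ND2, 0.05 for MT-ND4 and 0.04 for MT-ND5. Their intervals reached no higher than 0.11. MT-ND6 (bases 14149 to 14673, light strand) had 785, 835 and 746 CPM in control cells and 816, 810 and 818 CPM in IL17D cells. The IL17D libraries lay inside the control range, and its log2 fold change was 0.05 (interval -0.02 to 0.11).

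MT-CYB (bases 14747 to 15887), cytochrome b of complex III, had 2634 to 2811 CPM in control cells and 2727 to 2916 CPM in IL17D cells. The groups overlapped, and the log2 fold change was 0.05 (standard error 0.027, adjusted p = 0.432 from edgeR). Of the ATP synthase subunits, MT-ATP6 had a log2 fold change of 0.01 with an interval of -0.03 to 0.06. MT-ATP8 was thinly covered. Control replicates 1, 2 and 3 held 159, 191 and 123 counts of it, and IL17D replicates 1, 2 and 3 held 219, 200 and 189. After scaling, control replicate 2 (13.2 CPM) lay within the IL17D range of 12.1 to 13.3 CPM, while the other control libraries were lower. Its log2 fold change was 0.34 (interval 0.07 to 0.62, adjusted p = 0.285 from edgeR). Without control replicate 2 the log2 fold change was 0.56 and the adjusted p from edgeR 0.0264, and without control replicate 3 they were 0.17 and 0.679.

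The ribosomal RNAs build the small and large subunits of the mitochondrial ribosome. MT-RNR2 (ENSG00000210082, bases 1671 to 3229), the large subunit RNA, had 10167, 10431 and 11000 CPM in control cells and 10264, 10947 and 10465 CPM in IL17D cells. The log2 fold change was 0.00 (0.0036 before rounding), with an interval of -0.05 to 0.05. MT-RNR1 (bases 648 to 1601), the small subunit RNA, had 866, 934 and 938 CPM in control cells and 915, 988 and 801 CPM in IL17D cells. IL17D replicates 2 and 3 were the highest and the lowest of the 6 libraries, and the log2 fold change was -0.02 (interval -0.10 to 0.07). Per length, MT-RNR2 was 6.78 to 7.99 times as high as MT-RNR1, with the highest ratio in IL17D replicate 3. Whether the libraries were made with poly(A) selection is not given in the sources used here, so these counts are not read as amounts of ribosomes.

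Transfer RNAs carry the amino acids for mitochondrial translation. Their counts were low and uneven. MT-TN, MT-TC and MT-TP, whose sequences are given above, held 85.7% to 89.4% of the counts on transfer RNA genes, and light-strand genes together held 89.4% to 92.7%. The strand setting of the counting is not given in the sources used here, so reads from such a gene and from the opposite strand cannot be told apart. MT-TP (bases 15956 to 16023) had 71.0, 69.4 and 68.8 CPM in control cells and 79.1, 81.6 and 73.5 CPM in IL17D cells. It was the 1 tested mitochondrial gene whose groups did not overlap, with a log2 fold change of 0.16 (interval 0.06 to 0.27, adjusted p = 0.128 from edgeR). MT-TN had 200, 184 and 175 CPM in control cells and 204, 192 and 203 CPM in IL17D cells, and the groups crossed at control replicate 1. Its log2 fold change was 0.10 (interval 0.01 to 0.18, adjusted p = 0.364 from edgeR). MT-TC (0.01), MT-TY (0.10), MT-TL1 (-0.08), MT-TH (0.12) and MT-TG (-0.21) had log2 fold changes whose intervals held 0. MT-TR, MT-TV, MT-TM, MT-TE, MT-TL2, MT-TI, MT-TT and MT-TD were kept by the filter with at most 50 counts in any library, and their log2 fold changes ran from -0.96 for MT-TL2 to 0.61 for MT-TE. MT-TV had 50, 24 and 38 counts in control cells and 20, 30 and 20 in IL17D cells. MT-TL2 had 31, 29 and 11 counts in control cells and 25, 5 and 7 in IL17D cells. Both were lower in IL17D cells at an unadjusted p under 0.05, with adjusted p-values of 0.377 and 0.405 from edgeR, and in both the groups overlapped. The 7 genes that the filter removed, MT-TF, MT-TQ, MT-TW, MT-TA, MT-TS1, MT-TK and MT-TS2, had 0 to 13 counts in each library. MT-TQ had 11, 9 and 8 counts in control cells and 6, 3 and 1 in IL17D cells, so its groups did not overlap, but the filter had removed it. All 7 entered the edgeR fit with all genes of at least 1 count, and none of them had an adjusted p under 0.05 there. With so few counts a change in these 7 genes could not be assessed well.

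The make-up of the mitochondrial mRNAs was compared next, as the share of each gene in the summed counts of the 13 mRNA genes. This measure does not depend on the total of the library. The 7 complex I genes held 33.2%, 33.7% and 33.7% of these counts in control replicates 1, 2 and 3 and 34.2%, 34.1% and 34.5% in IL17D replicates 1, 2 and 3. The 3 complex IV genes held 54.9%, 54.7% and 55.2% in control cells and 54.1%, 54.5% and 53.7% in IL17D cells. For these 2 complexes the groups did not overlap, and the differences in means were 0.777 and -0.824 percentage points against SDs of 0.218 to 0.370. Shares add up to a fixed whole, so the 2 differences are not independent, and no test was made of them. A full separation of 3 against 3 libraries cannot go below p = 0.1 in an exact permutation test. Shares of this kind were not computed for other genes, so no background rate of separation is known for them. The share of complex III (4.66% to 4.84%) and that of ATP synthase (6.47% to 7.16%) overlapped between the groups. Of single genes, MT-CO1 was lower in all 3 IL17D libraries (31.2% to 31.9%) than in all control libraries (32.0% to 32.6%). MT-ND4, MT-ND2 and MT-ND3 were higher in all 3 IL17D libraries, and MT-ND4 went from 12.3% ± 0.0221 (SD, n = 3) to 12.5% ± 0.101 (SD, n = 3). The other 9 genes overlapped. As CPM, none of the 13 mRNA genes separated the groups, where 15.8% of all tested genes did. The 4 separations were seen only as shares within the mRNA counts, for which that rate is no background.

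**Figure D4:**
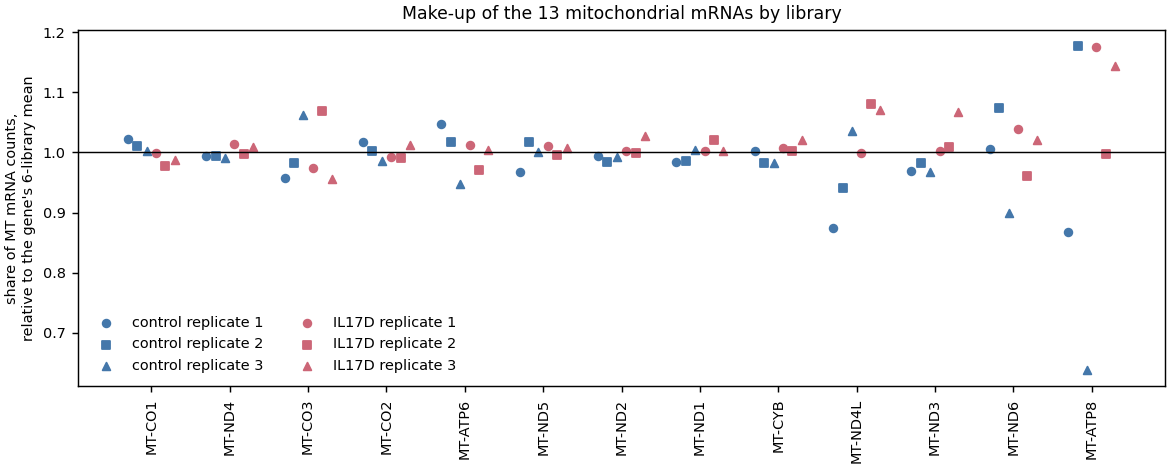
Share of each gene in the counts of the 13 mitochondrial mRNAs, divided by that gene's mean over the 6 libraries (vertical axis), for genes ordered by their share (blue, control; red, IL17D; circle, square and triangle for replicates 1, 2 and 3). MT-CO1 lies lower in the IL17D libraries (31.2% to 31.9%, against 32.0% to 32.6%), while MT-ATP8 spreads most among the control libraries.

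Nuclear copies of mitochondrial genes were listed 407 times, and 324 of the copies had no count in any library. Together the copies held 0.0636% to 0.0782% of the library total, and MTATP6P1, MTND2P28 and MTCO1P12 gave at least 98.6% of that in every library. These 3 lie in the block on chromosome 1 and share 98.5%, 98.4% and 98.6% of their bases with MT-ATP6, MT-ND2 and MT-CO1. Of all 50-base stretches of these mitochondrial genes, 46.7%, 43.6% and 49.5% occur unchanged in transcripts of other genes, so their counts and those of the copies are uncertain. In such transcripts no stretch of MT-ND3 or MT-ND4L was found, and none of the ribosomal RNA MT-RNR1 or the transfer RNA genes. The search covered GENCODE transcripts only, so nuclear copies outside annotated transcripts, also those of transfer RNA genes, would have been missed.

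The 8 copies that passed the filter gave no adjusted p under 0.05 in edgeR's test, against 1.58% of all tested genes, and 2 of them (25%) had an unadjusted p under 0.05, against 11.6% of all. MTATP6P1 (chromosome 1, 633696 to 634376) was counted 5624, 4683 and 6871 times in control replicates 1, 2 and 3, and 5364, 7521 and 6246 times in IL17D replicates 1, 2 and 3. For every 100 counts of MT-ATP6 that is 8.50, 8.24 and 10.9 in control cells and 8.25, 11.2 and 10.9 in IL17D cells, so the ratio was high in libraries of both groups. Its log2 fold change was 0.15 (interval 0.00 to 0.30, adjusted p = 0.414 from edgeR). Without control replicate 3 or IL17D replicate 1 the adjusted p from edgeR was 0.0105 and 0.00517. MTND2P28 stayed between 8.03 and 8.80 counts for every 100 counts of MT-ND2. MTCO1P12 was at 0.238 to 0.325 for every 100 counts of MT-CO1, with a log2 fold change of 0.17 (adjusted p = 0.308 from edgeR). When MT-ATP6 and its copies were summed, the log2 fold change was 0.03, against 0.01 for MT-ATP6 alone. The 5 other copies, MTCO3P12, MTND4P12, MTCO1P28, MTND1P23 and MTRNR2L4, had at most 23 counts in any library.

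Nuclear genes of mitochondrial DNA maintenance, RNA handling, translation and biogenesis were read in the same fit, together with nuclear subunits of the complexes. The 13 lists held 286 listed genes, of which 281 were tested. Of these, 1 gene, MYC, had an adjusted p under 0.05, which is a share below the 1.58% of all tested genes, and 8.19% had an unadjusted p under 0.05, against 11.6% of all. The median log2 fold change of the 281 genes was 0.0038, with 150 above 0. MYC, a transcription factor listed among the regulators of mitochondrial biogenesis, had 192, 190 and 187 CPM in control replicates 1, 2 and 3 and 227, 225 and 222 CPM in IL17D replicates 1, 2 and 3. It rose from 190 ± 2.73 to 224 ± 2.57 CPM (SD, n = 3 each), a log2 fold change of 0.24 (adjusted p = 6.3e-05 from edgeR). No other regulator on that list of 10 tested genes passed, and its median was 0.09.

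In the other 12 lists no gene passed, and the gene with the smallest p of each is named. For transcription of the mitochondrial genome (9 tested genes, POLRMT and TFAM among them) this was MRPL12, with a log2 fold change of -0.09, and the median of the list was -0.01. For replication and maintenance (21 genes) it was PRIMPOL, a primase-polymerase, at 14.4 CPM in IL17D and 17.9 CPM in control cells (log2 fold change -0.31, adjusted p = 0.135 from edgeR). KIAA0391, which encodes the nuclease subunit of mitochondrial RNase P, had 0.33 in the list of 10 processing genes (adjusted p = 0.376 from edgeR).

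The medians of the replication and processing lists were 0.03 and 0.05. LRPPRC, which stabilises mitochondrial mRNAs, had 366 ± 4.63 CPM in control cells and 384 ± 6.07 CPM in IL17D cells (SD, n = 3 each), a log2 fold change of 0.07 (adjusted p = 0.376 from edgeR). Its list of 10 genes for polyadenylation, stability and decay had a median of 0.04. TRMU, which thiolates transfer RNAs, had 0.15 among 22 modification genes, NARS2, the asparaginyl-tRNA synthetase, -0.22 among 22 synthetase genes, and MTFMT, which formylates the initiator transfer RNA, 0.18 among 20 translation factors. The adjusted p-values of these 3 were at least 0.199 in edgeR's test, and the medians of their lists were -0.03, -0.03 and 0.02.

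The mitochondrial ribosomal proteins had a median log2 fold change of 0.02 over 82 tested genes, with 46 above 0. MRPS10 had -0.22 (adjusted p = 0.0950 from edgeR), and without control replicate 3 its adjusted p in that test was 0.0496. The nuclear subunits of the complexes that also hold mitochondrial subunits were tested with 76 genes, and their median was -0.01. By complex, the medians were -0.02 for complex I (37 genes), 0.03 for complex III (9 genes), -0.03 for complex IV (12 genes) and -0.00 for ATP synthase (18 genes, -0.0044 before rounding). NDUFB3 (0.21), CYC1 (0.06), COX6C (0.11) and ATP5MC3 (0.09) had the smallest p of each, and none passed, with adjusted p-values of at least 0.160 in edgeR's test.

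**Figure D5:**
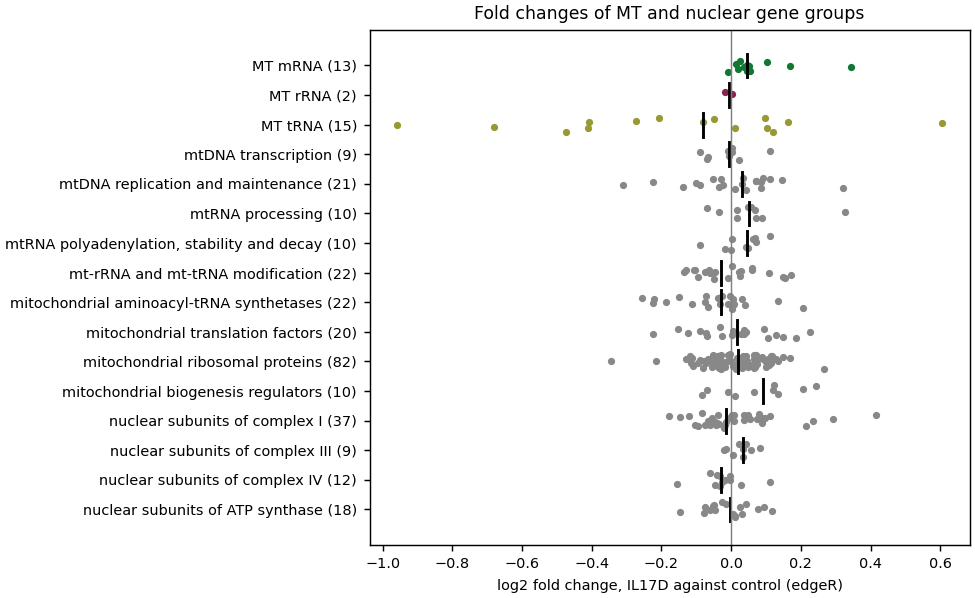
Log2 fold change of IL17D against control cells (horizontal axis) for tested mitochondrially encoded genes by class and for tested nuclear genes of 13 lists, with the number of genes in parentheses; each point is a gene and each black bar the median of its group. Medians of all lists lie between -0.03 and 0.09, and that of the 13 mitochondrial mRNAs is 0.05.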

How the data were processed

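The study's methods describe total RNA extraction with TRIzol. RNA of 3 control and 3 IL17D-overexpressing A549 libraries was sequenced, and groups were taken from the sample titles. A single file was deposited, holding raw gene counts of the 6 libraries, which the authors had not normalized. The submitters' processing notes name Bowtie2 and hg38, and the counting tool, strand setting and treatment of reads with several matches are not given in the sources used here. Such reads matter here because nuclear copies resemble mitochondrial genes. The table has no per-sample column that was left out.

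The tools were edgeR 4.0.16, DESeq2 1.42.0 and limma 3.58.1 under R 4.3.3, and figures were drawn in Python 3.11.15 with matplotlib 3.10.9. Genes were kept by filterByExpr, libraries were scaled by TMM, and groups were compared by edgeR's quasi-likelihood test without covariates, two-sided, with Benjamini-Hochberg adjustment over 15754 genes. Intervals of fold changes (95%) follow from the F statistic and its degrees of freedom. CPM are relative to the TMM-scaled library total. RPKM are CPM of the unscaled total, divided by the deposited gene length in kilobases. Shares were given without a test, since 3 against 3 libraries cannot go below p = 0.1 in an exact permutation test. The steps were tested on simulated data. No pair of replicates agreed within sampling noise (chi-square per degree of freedom 2.19 to 3.36 within groups and 4.88 to 6.44 between groups). Tested genes with very few counts in a pair of libraries were left out of these values. The overexpressed IL17D entered them and raises those between groups. They were not computed without it. Libraries held 14319398 to 16521021 counts, so a count of 0 allows 0.182 to 0.210 CPM.

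The members follow from position alone, but this set of genes and the lists were chosen with earlier results of these data known. The naming rule takes the mitochondrial genes, the nuclear copies that passed the filter, and from each list the genes with an adjusted p under 0.05 or else the smallest p. Alternatives were DESeq2's size factors, library totals without TMM, scaling without mitochondrial genes, DESeq2's Wald test, limma voom, 2 other filters, the replicate number as a block, leaving out each library, other denominators of the shares, and summing genes with their nuclear copies. Deposited gene lengths equalled end minus start plus 1 for all 37 genes.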

Additional observations from a re-analysis of the deposited data

How the results depend on the processing

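No mitochondrially encoded gene was called under the other 2 scalings and the scaling without mitochondrial genes, DESeq2's Wald test, limma voom or the filter of at least 10 counts in every library. With all genes of at least 1 count, edgeR's test called 1 mitochondrial gene higher (MT-ND4L), 1 list gene lower (MRPL23) and 1 nuclear copy higher (MTATP6P1, adjusted p = 0.00336). Leaving out single libraries gave 0 to 2 mitochondrial genes called higher, 0 to 2 list genes called lower (MRPS10 and MRPL23 without control replicate 3) and 0 to 1 nuclear copies called higher. Over all genes it gave 69 to 129 called higher, against 106, and 76 to 138 called lower, against 143. MYC was called in every setting. The share difference of all mitochondrial genes ran from -0.0493 percentage points without IL17D replicate 2 to 0.222 without control replicate 3. That of the mRNA genes ran from -0.0278 to 0.200. Other denominators moved no share difference by more than 1 SD.

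Leaving out single libraries turned the direction of 12 log2 fold changes, none of them called. Their ranges were -0.0885 to 0.0615 for MT-RNR1, -0.0229 to 0.0365 for MT-RNR2, -0.0318 to 0.0146 for MT-CO1, -0.00357 to 0.0480 for MT-CO2, -0.0596 to 0.102 for MT-CO3, -0.239 to 0.0499 for MT-TL1, -0.563 to 0.101 for MT-TI, -0.377 to 0.174 for MT-TM, -0.0624 to 0.0754 for MT-TC, -0.0442 to 0.414 for MT-TH, -0.0245 to 0.406 for MTCO3P12 and -0.232 to 0.0399 for MRPL12. The cause was not tested. For transfer RNA genes and nuclear copies with few counts, intervals were wide and some reached beyond 1 on the log2 scale. The RNA selection of the libraries is not given in the sources used here, and why these counts are few was not tested.

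Deviations of same-numbered libraries correlated at 0.00997, -0.0119 and -0.0151, which shows no pairing by replicate number but cannot exclude it. With the replicate number as a block, edgeR's test called 1 mitochondrial gene higher (MT-ND4L, adjusted p = 0.000349), 1 list gene lower (MRPL23) and 272 genes in all, against 249 without it. No library correlated best with its own number.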
